A study of Mus musculus with 14 samples.

Results

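The comparison described here set left ventricles of HCN4F knock-in mice against those of wild-type (WT) mice, all 5 weeks after transverse aortic constriction (TAC), a surgical narrowing of the aorta that raises the pressure against which the left ventricle works. Its members were the 4 libraries labelled HCN4F with TAC and the 2 labelled WT with TAC (replicates 2 and 3), 6 of the 14 libraries analysed in the whole series. They were chosen by their labels alone. The other 8 libraries were the Sham-operated groups of the same experiment, with 4 HCN4F-Sham and 4 WT-Sham hearts. All mice were males operated at an age of 10 to 12 weeks, and polyadenylated RNA of frozen ventricular tissue was sequenced. The sources used here do not say whether 1 or both copies of Hcn4 carried the mutation, and as a knock-in it is not limited to the ventricle. The study describes its samples as biological replicates. The count table also held 2 columns whose names begin like those of the WT-TAC libraries but match no sample of the labels used here, and they were not analysed, so every value below rests on 2 WT-TAC libraries. The 6 libraries held 23352197 to 35210939 counted reads, and values per library are given as CPM (counts per library size after TMM scaling). A count of 3 reads, the limit that a count of 0 allows, corresponded to 0.0858 to 0.124 CPM in these libraries and covers counting error only.

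HCN4 is a channel that opens on hyperpolarization, carries the pacemaker current of the sinoatrial node and is opened more readily by cyclic AMP. The HCN4F allele exchanges a tyrosine for a phenylalanine in the C-linker, the stretch that couples the cyclic nucleotide binding domain to the pore, and was made as a gain-of-function allele. The ventricle under pressure overload is known to re-express fetal muscle genes, to deposit collagen and other matrix through activated fibroblasts, to recruit monocytes and macrophages, and to lower its capacity for fatty acid oxidation. The comparison asks whether these known programs differed between genotypes once both had been subjected to TAC.

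The exchanged residue is a tyrosine of Hcn4 (ENSMUSG00000032338). In the reference transcript its codon is TAC, at chr9:58855732-58855734 on the plus strand of GRCm38, in the coding part of exon 4 (chr9:58855525-58855743). The end of that exon is shown because it is the site of the allele that separates the groups, with the tyrosine codon of the WT reference in capitals.
Hcn4 exon 4, chr9:58855705-58855743: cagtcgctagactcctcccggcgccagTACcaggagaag
The counts hold no base calls, so the allele itself was not read from these libraries. Hcn4 transcripts stood at 11.9 and 13.5 CPM in WT-TAC replicates 2 and 3 and 5.93, 3.49, 8.41 and 9.07 CPM in HCN4F-TAC replicates 1 to 4. All 4 HCN4F-TAC libraries lay below both WT-TAC libraries, with HCN4F-TAC replicate 2 the lowest. The log2 fold change was -0.92 (SE 0.31, adjusted p = 0.238, quasi-likelihood test of edgeR, Benjamini-Hochberg adjusted, as for every adjusted p below), which did not pass the threshold, against -0.06 in Sham hearts.

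The tissue matched its label, and some of the 6 libraries stood apart. Ventricular cardiomyocyte markers dominated every library, with summed levels of 76646 and 78346 CPM in WT-TAC and 61448 to 71878 CPM in HCN4F-TAC, so the groups did not overlap. None of the 9 tested ventricular markers was higher in HCN4F-TAC on average, and for 4 of them all 4 HCN4F-TAC libraries lay below both WT-TAC libraries. Of 4 tested atrial markers, 3 were highest in HCN4F-TAC replicate 2. The atrial light chain gene Myl7 stood at 0.0411 and 0.258 CPM in WT-TAC replicates 2 and 3 and 0, 9.91, 0 and 0.163 CPM in HCN4F-TAC replicates 1 to 4, and the other atrial light chain gene, Myl4, at 1.77 and 1.80 CPM in WT-TAC replicates 2 and 3 and 1.87, 17.4, 1.48 and 4.07 CPM in HCN4F-TAC replicates 1 to 4. Dkk3 is given with the Wnt antagonists below. The fourth marker, Kcnj3, had the opposite direction and was lowest in replicate 2 (12.3 CPM). HCN4F-TAC replicate 3 resembled the WT-TAC libraries more than the other HCN4F-TAC libraries did. Its log2 CPM correlated with that of WT-TAC replicate 2 at r = 0.989 across 15292 genes, against 0.983, 0.979 and 0.983 for HCN4F-TAC replicates 1, 2 and 4. Genes are not independent replicates, and these values only describe the libraries. With fewer HCN4F-TAC libraries more genes are without overlap: leaving out HCN4F-TAC replicates 1, 2, 3 and 4 in turn put 13.9, 14.1, 18.5 and 13.6% of all tested genes above and 13.9, 13.6, 17.9 and 13.2% below, the backgrounds for the counts given without a library. Of 122 named genes, 13 moved their log2 fold change by over 1.5 times with WT-TAC replicate 2 left out and 12 with replicate 3 left out, and none changed sign. Most of these genes were chosen because their groups did not overlap, so leaving out a library could hardly change a sign. In RNA of whole tissue, fewer cells of a type and less RNA per cell cannot be told apart.

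Few single genes passed the threshold, whereas whole gene groups lay to one side. Of 15292 tested genes, 6 were called higher (0.0392%) and 5 lower (0.0327%) in HCN4F-TAC hearts, where a call needed an adjusted p under 0.05 together with a log2 fold change beyond 1 in either direction. The number depended on the libraries and the fit. The test called 158 genes (137 higher and 21 lower) without HCN4F-TAC replicate 3 but 8 genes (1 higher and 7 lower) without HCN4F-TAC replicate 4. It called 6 genes (2 higher and 4 lower) without WT-TAC replicate 2 and 7 genes (1 higher and 6 lower) without WT-TAC replicate 3. The edgeR fit of the TAC groups alone called 3 genes (0 higher and 3 lower), and a DESeq2 fit of the 4 groups gave 87 genes (72 higher and 15 lower). A second description needed no model: for 1723 genes (11.3%) all 4 HCN4F-TAC libraries lay above both WT-TAC libraries, and for 1679 genes (11%) all 4 lay below both. These shares are the background against which the members of each gene list are read below. When libraries were scaled by their total counts in place of TMM, 2306 genes lay above and 891 below, so that 72.1% of the non-overlapping genes lay above, against 50.6% with TMM. The median log2 fold change over all tested genes was 0.00362, and 50.7% of genes were higher. With 4 libraries against 2 there are 15 arrangements of the labels and the smallest two-sided exact permutation p is 0.133, so no single gene could pass such a test.

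**Figure D1:**
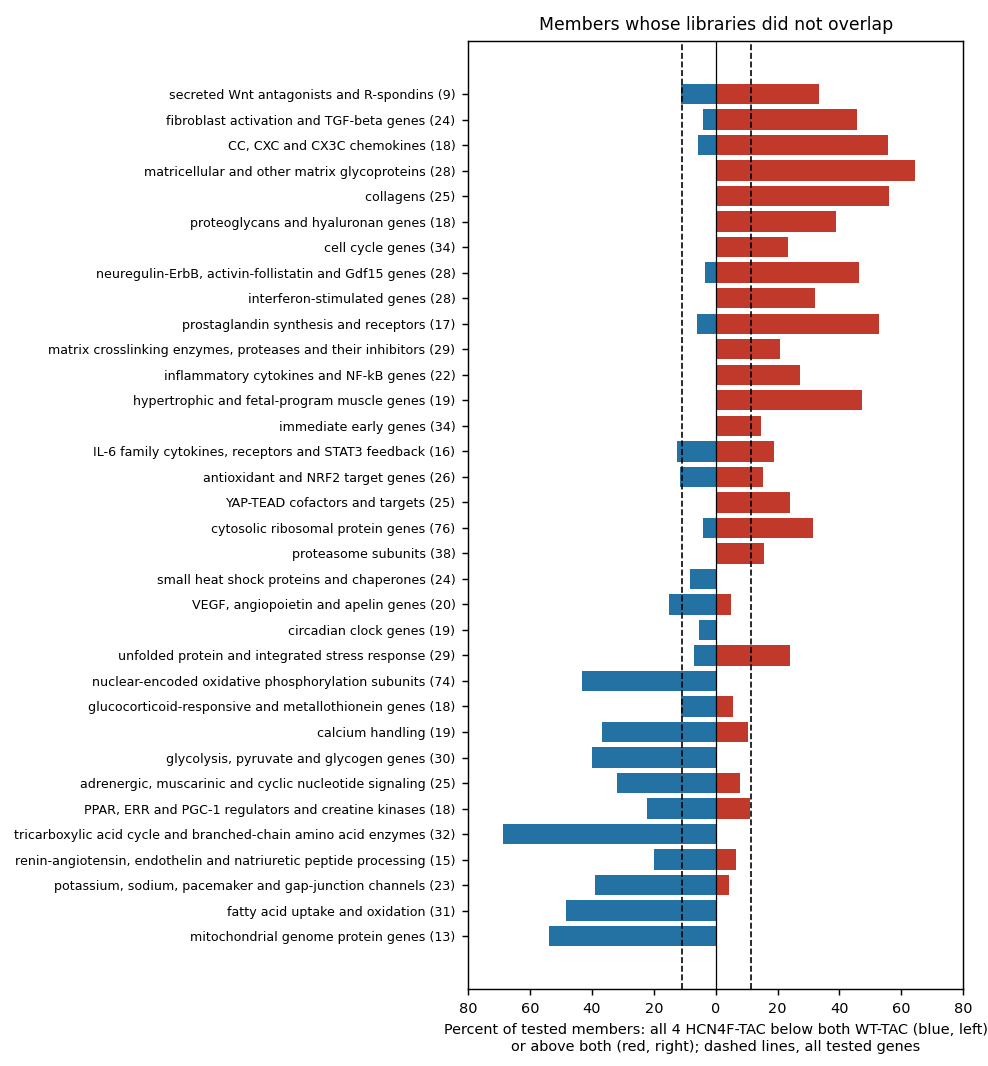
Bars give the percent of each list's tested members (number in parentheses) for which all 4 HCN4F-TAC libraries lay above both WT-TAC libraries (red, to the right) or below both (blue, to the left), and dashed lines give the same share of all tested genes, 11.3% above and 11% below. Matricellular genes (64.3% above) and tricarboxylic acid cycle genes (68.8% below) held the largest shares on either side among the pathway lists.

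The genes called higher were Ptgs2, Frzb, Sox9, Itgbl1, Ankrd1 and Col27a1. Sox9 (ENSMUSG00000000567, chr11:112782224-112787760 on GRCm38), the transcription factor of chondrocytes that activated cardiac fibroblasts also use, stood at 2.92 and 2.38 CPM in WT-TAC replicates 2 and 3 and 7.30, 7.31, 6.11 and 9.27 CPM in HCN4F-TAC replicates 1 to 4. The lowest HCN4F-TAC library was thus above the higher WT-TAC library, and the log2 fold change was 1.51 (SE 0.19, adjusted p = 0.00138). In Sham hearts it was 0.09. Ptgs2 (ENSMUSG00000032487, chr1:150100031-150108227), the inducible cyclooxygenase that starts prostaglandin synthesis, was measured at 1.03 and 0.859 CPM in WT-TAC replicates 2 and 3 and 4.11, 2.90, 3.18 and 3.66 CPM in HCN4F-TAC replicates 1 to 4. These values came from 25 and 30 reads in WT-TAC and 88 to 99 reads in HCN4F-TAC libraries, and the log2 fold change was 1.88 (SE 0.31, adjusted p = 0.0176). Frzb (ENSMUSG00000027004, chr2:80411970-80447625), a secreted antagonist of Wnt ligands, had 3.04 and 3.78 CPM in WT-TAC replicates 2 and 3 and 8.54, 14.5, 6.005 and 11.5 CPM in HCN4F-TAC replicates 1 to 4, with a log2 fold change of 1.56 (SE 0.28, adjusted p = 0.0475). Its HCN4F-TAC values spread widely, and HCN4F-TAC replicate 3 was the lowest of them.

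Itgbl1 (ENSMUSG00000032925, chr14:123659971-123975618), which encodes a secreted protein resembling integrin beta chains, gave 10.9 and 9.70 CPM in WT-TAC replicates 2 and 3 and 25.3, 33.2, 15.3 and 28.8 CPM in HCN4F-TAC replicates 1 to 4. Its log2 fold change was 1.32 (SE 0.22, adjusted p = 0.0232). For the fibrillar collagen gene Col27a1 (ENSMUSG00000045672, chr4:63214004-63334991) the libraries held 2.67 and 2.32 CPM in WT-TAC replicates 2 and 3 and 5.06, 5.56, 4.56 and 5.33 CPM in HCN4F-TAC replicates 1 to 4, a log2 fold change of 1.05 (SE 0.18, adjusted p = 0.0217). Both WT-TAC libraries of Col27a1 lay below all 4 WT-Sham libraries, which ranged from 2.90 to 3.82 CPM. Ankrd1 (ENSMUSG00000024803, chr19:36111961-36120099), a stretch-induced ankyrin repeat protein of the sarcomere and nucleus, was by far the most abundant of the called genes. It stood at 1432 and 1364 CPM in WT-TAC replicates 2 and 3 and 3586, 5059, 2277 and 3070.2 CPM in HCN4F-TAC replicates 1 to 4, a log2 fold change of 1.32 (SE 0.23, adjusted p = 0.0486), and at 1.08 without HCN4F-TAC replicate 2. Across the 13 alternative fits Sox9 kept its call in 11, Itgbl1 in 9, Ptgs2 in 8, Col27a1 in 7, Frzb in 6 and Ankrd1 in 5.

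**Figure D2:**
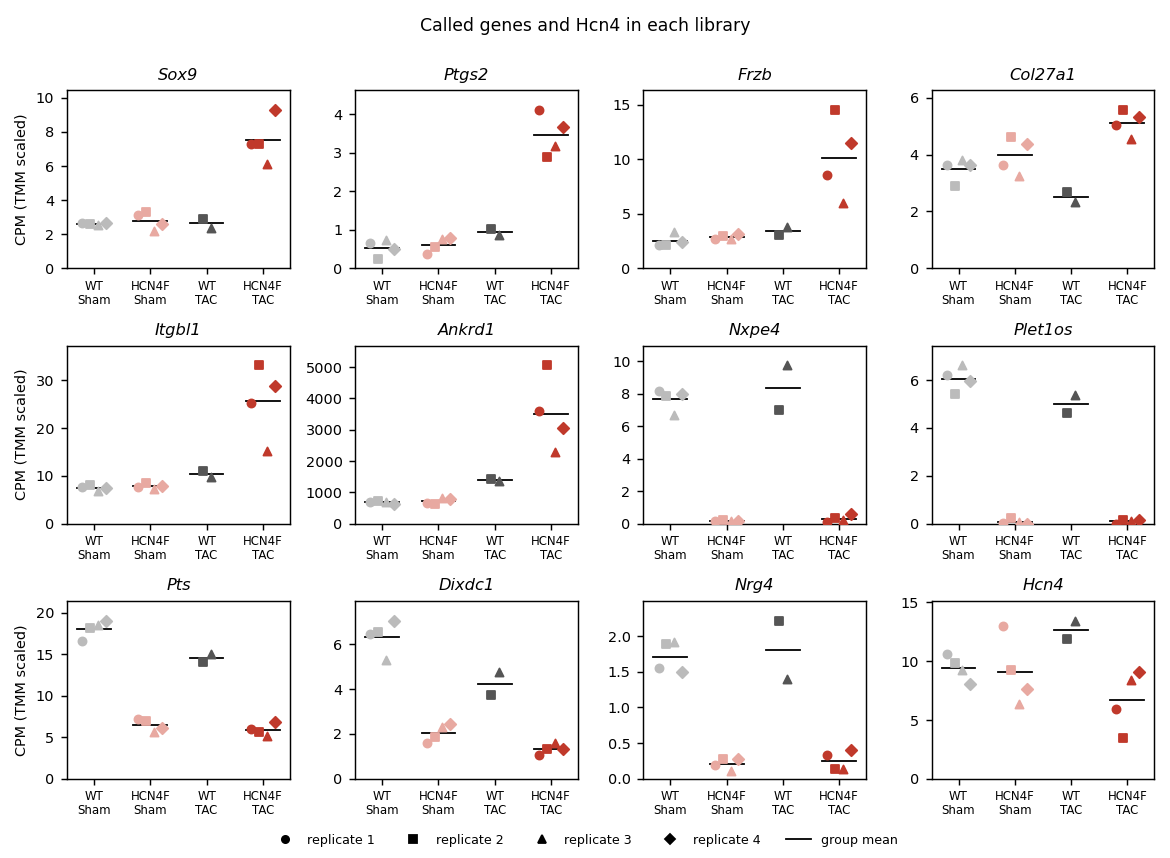
Each point is 1 library (CPM after TMM scaling on a linear axis from 0), each bar the mean of its group, and the marker shape gives the replicate number. The 6 genes called higher stood apart in HCN4F-TAC hearts, with replicate 3 (triangle) the lowest HCN4F-TAC library for Sox9, Frzb, Itgbl1, Ankrd1 and Col27a1, whereas the 5 genes called lower were low in both HCN4F groups.

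The genes called lower, Plet1os, Nxpe4, Nrg4, Dixdc1 and Pts, all lay on chromosome 9, which also carries Hcn4 and holds 5.75% of the tested genes. They were at 3.50 Mb (Nrg4), 8.08 Mb (Dixdc1), 8.29 Mb (Pts), 8.32 Mb (Plet1os) and 10.4 Mb (Nxpe4) from it. Nxpe4 stood at 6.98 and 9.73 CPM in WT-TAC replicates 2 and 3 and 0.0829, 0.329, 0.212 and 0.569 CPM in HCN4F-TAC replicates 1 to 4, the HCN4F-TAC values from 2 to 14 reads, with a log2 fold change of -4.79 (SE 0.28, adjusted p = 6.15e-08). Plet1os, an antisense transcript of Plet1 whose reads could not be separated by strand here, had 113 and 188 reads in the WT-TAC libraries and 0, 5, 3 and 4 reads in the HCN4F-TAC libraries. Pts, an enzyme of tetrahydrobiopterin synthesis, was measured at 14.1 and 15.1 CPM in WT-TAC replicates 2 and 3 and 6.05, 5.66, 5.12 and 6.83 CPM in HCN4F-TAC replicates 1 to 4, a log2 fold change of -1.30 (SE 0.12, adjusted p = 2.65e-05). Nrg4, a neuregulin that binds ErbB4, fell from 2.22 and 1.40 CPM to between 0.132 and 0.407 CPM, and Dixdc1, a Wnt pathway protein, had a log2 fold change of -1.67 (SE 0.20). Sham hearts of HCN4F mice also held less of each than those of WT mice, with log2 fold changes of -6.27, -5.35, -3.00, -1.61 and -1.48 in the order first named. Their interaction values, the TAC difference minus the Sham difference, ranged from -0.06 to 0.83, and none passed an adjusted p of 0.05. In contrast, the 6 genes called higher had Sham values between 0.06 and 0.23. Ppcdc, an enzyme of coenzyme A synthesis that lies 1.38 Mb from Hcn4, was higher in HCN4F-TAC hearts (log2 fold change 0.89, adjusted p = 0.0058) and in HCN4F-Sham hearts (0.51).

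**Figure D3:**
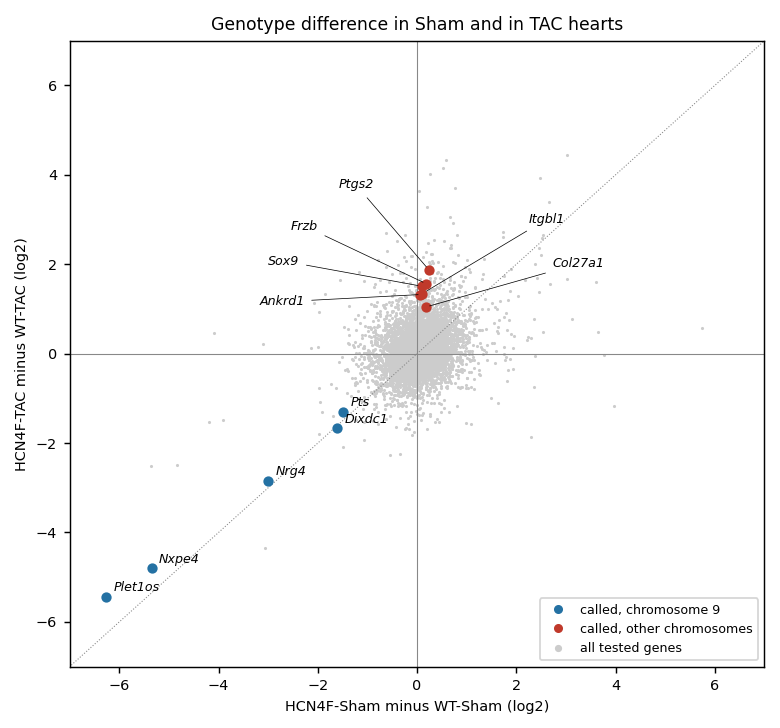
Each grey point is 1 of 15292 tested genes, placed by its genotype difference in Sham hearts (horizontal axis, log2) and in TAC hearts (vertical axis, log2), comparisons that share no library, and the dotted line marks equal values. The 5 called genes on chromosome 9 (blue) lay along that line between -5.44 and -1.30, and the 6 called genes on other chromosomes (red) lay near 0 in Sham hearts.

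Genes of the extracellular matrix made up the broadest group on the higher side. Of 25 tested collagen genes, 23 had a higher mean in HCN4F-TAC hearts, with a median log2 fold change of 0.67 (range -0.45 to 3.70), and Col6a6 (-0.45) and Col11a2 (-0.25) were the exceptions. All 4 HCN4F-TAC libraries lay above both WT-TAC libraries for 14 of 25 collagen genes, and for none were all below, against the background of 11.3%. The count was 14 without HCN4F-TAC replicate 2, where the background was 14.1%, and 21 without replicate 3, where it was 18.5%. Col1a2, a chain of fibrillar collagen I, stood at 172 and 136 CPM in WT-TAC replicates 2 and 3 and 304, 328, 186 and 313 CPM in HCN4F-TAC replicates 1 to 4, with a log2 fold change of 0.87 (SE 0.19, adjusted p = 0.095). Replicate 3 was close to the higher WT-TAC library, and the other 3 HCN4F-TAC libraries lay between 304 and 328 CPM. Col8a1, which encodes a short-chain collagen, was measured at 27.5 and 33.4 CPM in WT-TAC replicates 2 and 3 and 78.4, 86.7, 43.5 and 68.9 CPM in HCN4F-TAC replicates 1 to 4 (log2 fold change 1.19, SE 0.22, adjusted p = 0.0728). The fibril-associated collagen gene Col12a1 had 1.73 and 1.77 CPM in WT-TAC replicates 2 and 3 and 5.39, 7.57, 2.37 and 7.16 CPM in HCN4F-TAC replicates 1 to 4, again with replicate 3 nearest to WT-TAC. No member of this list passed the threshold, and the called collagen gene Col27a1 is not in it.

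Matricellular and other matrix glycoproteins had the highest share above of any pathway list, with 18 of 28 members above both WT-TAC libraries in all HCN4F-TAC libraries (median log2 fold change 0.67, 25 higher) and none below. Thbs4, a thrombospondin of tendon and stressed heart, stood at 5.18 and 5.30 CPM in WT-TAC replicates 2 and 3 and 23.6, 52.2, 14.1 and 42.3 CPM in HCN4F-TAC replicates 1 to 4. The WT-TAC values were nearly equal, the HCN4F-TAC values spread from 14.1 to 52.2 CPM, and the log2 fold change of 2.66 (SE 0.53) had an adjusted p of 0.0999. Wisp2 (CCN5), a CCN family protein, was at 4.03 and 6.53 CPM in WT-TAC replicates 2 and 3 and 15.1, 19.8, 13.5 and 21.7 CPM in HCN4F-TAC replicates 1 to 4, and Emilin1, an elastic fibre glycoprotein, at 31.96 and 34.9 CPM in WT-TAC replicates 2 and 3 and 51.7, 63.9, 42.6 and 58.8 CPM in HCN4F-TAC replicates 1 to 4. Their log2 fold changes were 1.71 (SE 0.33) and 0.70 (SE 0.14). Chosen after their values were seen, the cartilage matrix genes Comp (3.63) and Cilp2 (3.29), the intermediate layer gene Cilp (1.99), osteopontin (Spp1, 2.66) and periostin (Postn, 1.64) were further members without overlap. Mean levels of Cilp2 and Spp1 in WT-TAC, 0.113 and 0.197 CPM, were near the limit of detection. In HCN4F-TAC they were 1.18 and 1.29 CPM, so the sizes of these 2 differences are uncertain. Nov, Thbs2 and Ltbp1 had lower means (-0.15, -0.08 and -0.26).

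Among proteoglycans and hyaluronan genes, 17 of 18 had a higher mean and 7 did not overlap (median 0.58), 11 without HCN4F-TAC replicate 3. Versican (Vcan), the large hyaluronan-binding proteoglycan, passed the adjusted p threshold but not the fold threshold. It stood at 13.6 and 16.7 CPM in WT-TAC replicates 2 and 3 and 31.3, 30.1, 22.2 and 31.04 CPM in HCN4F-TAC replicates 1 to 4 (log2 fold change 0.91, SE 0.14, adjusted p = 0.00619). Biglycan (Bgn), a small leucine-rich proteoglycan, was at 192 and 187 CPM in WT-TAC replicates 2 and 3 and 402, 486, 236 and 428 CPM in HCN4F-TAC replicates 1 to 4, and lumican (Lum), of the same family, at 25.2 and 21.3 CPM in WT-TAC replicates 2 and 3 and 36.5, 42.4, 27.9 and 41.9 CPM in HCN4F-TAC replicates 1 to 4. Has1, a hyaluronan synthase, overlapped between the groups, at 0.0822 and 0.401 CPM in WT-TAC replicates 2 and 3 and 2.12, 0.955, 0.247 and 1.26 CPM in HCN4F-TAC replicates 1 to 4, where the WT-TAC values came from 2 and 14 reads. For enzymes that crosslink or cut the matrix and their inhibitors, 25 of 29 members had a higher mean but 6 did not overlap (median 0.38), against 15 without HCN4F-TAC replicate 3. The 6 included the lysyl oxidases Loxl3 (1.02, SE 0.20) and Loxl2 (0.74, SE 0.18) and stromelysin Mmp3 (1.15, SE 0.26). The metalloproteinase inhibitor Timp1 overlapped, with 1.36 and 4.12 CPM in the WT-TAC libraries and 9.79, 11.6, 3.53 and 10.1 CPM in the HCN4F-TAC libraries. Mxra7, a matrix remodeling associated gene outside the lists, passed the adjusted p threshold at 18.9 and 18.03 CPM in WT-TAC replicates 2 and 3 and 29.4, 33.3, 28.05 and 31.6 CPM in HCN4F-TAC replicates 1 to 4 (log2 fold change 0.73, SE 0.10, adjusted p = 0.00465).

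Genes of fibroblast activation and TGF-beta signaling lay to the same side, with 21 of 24 higher, a median log2 fold change of 0.70, 11 members above and 1, Lrrc15 (-1.05), below. Without HCN4F-TAC replicate 3, 18 lay above, and without replicate 4, 3 lay below. Next to Sox9, the mesenchymal transcription factor Twist1 stood at 2.05 and 2.004 CPM in WT-TAC replicates 2 and 3 and 3.53, 4.38, 3.002 and 3.95 CPM in HCN4F-TAC replicates 1 to 4, with a log2 fold change of 0.87 (SE 0.20, adjusted p = 0.101). Acta2, the smooth muscle actin that marks myofibroblasts, had a log2 fold change of -0.11. Of the secreted Wnt antagonists and R-spondins, 9 were tested, and Frzb, Sfrp2 (1.30, SE 0.34) and Dkk3 (2.06, SE 0.58) lay above without overlap while Notum (-1.69) lay below. Dkk3 is also an atrial marker and was highest in HCN4F-TAC replicate 2, at 24.2 CPM. General fibroblast markers moved with these groups. All 8 tested fibroblast markers had a higher mean and 6 did not overlap, but their summed level, 1333 and 1614 CPM in WT-TAC and 1595 to 1973 CPM in HCN4F-TAC, overlapped. The fibroblast receptor gene Pdgfra was at 33.4 and 28.7 CPM in WT-TAC replicates 2 and 3 and 35.8, 37.9, 33.8 and 43.7 CPM in HCN4F-TAC replicates 1 to 4 and the fibroblast transcription factor Tcf21 at 7.48 and 6.70 CPM in WT-TAC replicates 2 and 3 and 8.83, 9.45, 8.72 and 8.50 CPM in HCN4F-TAC replicates 1 to 4, with log2 fold changes of 0.28 and 0.33 beside the collagen median of 0.67. Col1a1, Dcn, Lum and Pcolce among these markers are themselves genes of the matrix or its processing, and the part of cell number in the matrix result was not tested.

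**Figure D4:**
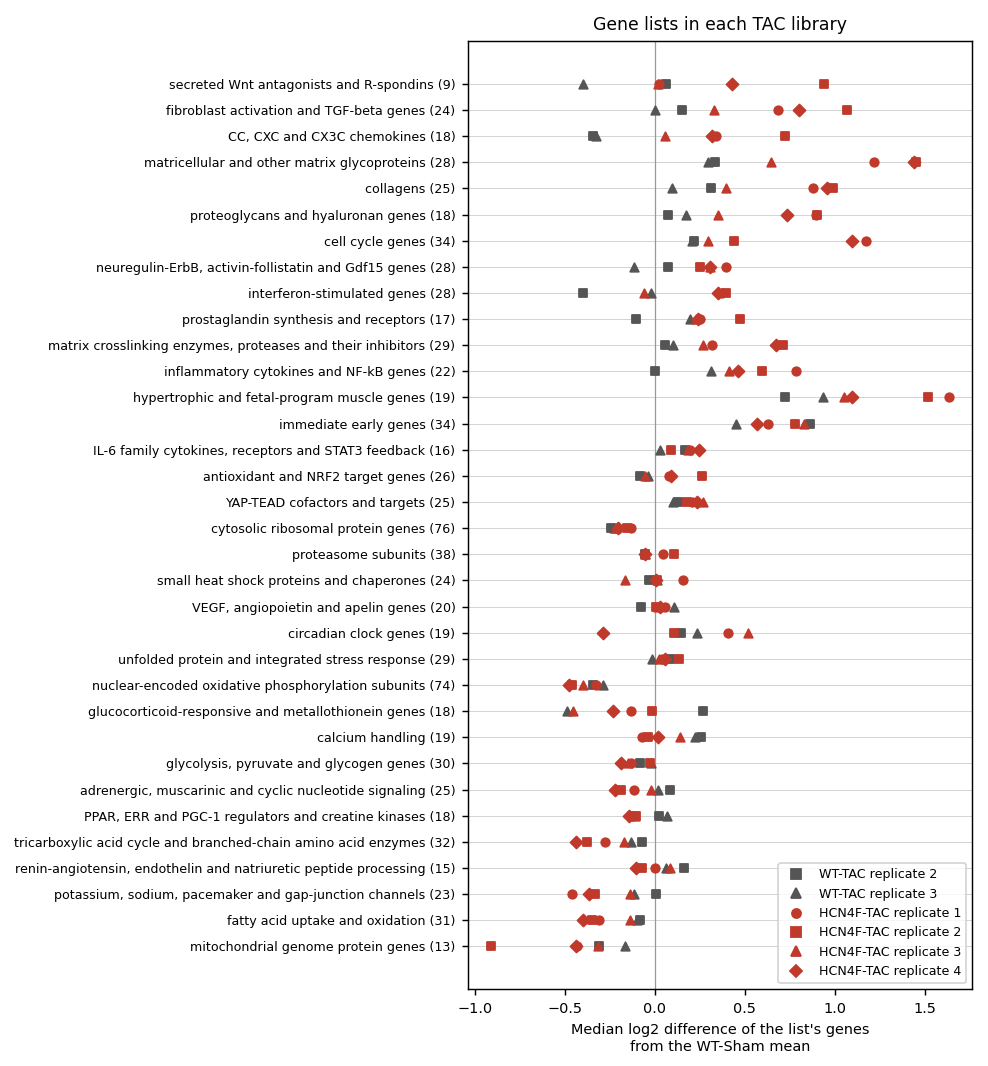
Each row is a gene list with its number of tested genes, and each point 1 TAC library, placed at the median log2 difference of the list's genes from the mean of the WT-Sham libraries. For matrix lists the WT-TAC libraries (grey) lay between 0.05 and 0.33 and HCN4F-TAC replicate 3 (red triangle) lay between them and the other HCN4F-TAC libraries.

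Measured against the Sham hearts, the lists gave a score for each library, the median log2 difference of a list's genes from the WT-Sham mean. The matricellular score was 0.33 and 0.30 in WT-TAC replicates 2 and 3 and 1.22, 1.45, 0.64 and 1.44 in HCN4F-TAC replicates 1 to 4. The collagen score was 0.31 and 0.10 in WT-TAC replicates 2 and 3 and 0.88, 0.99, 0.40 and 0.95 in HCN4F-TAC replicates 1 to 4. For both lists the lowest HCN4F-TAC library, replicate 3, lay above both WT-TAC libraries, and the distance from it to the other HCN4F-TAC libraries was larger than that to the nearer WT-TAC library. Each comparison taken alone, the median collagen log2 fold change of TAC against Sham was 0.22 in WT and 0.80 in HCN4F hearts, and that of matricellular genes 0.28 and 1.14. These comparisons share their TAC libraries with the one described here.

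Of 17 tested genes of prostaglandin synthesis and reception, 12 had a higher mean, 9 lay above without overlap (median log2 fold change 0.41) and 1, Ptges2 (-0.15), below, or 2 below without HCN4F-TAC replicate 3. The most abundant member, the prostaglandin D synthase gene Ptgds, had a lower mean (-0.26). Those above ran from the phospholipase that frees arachidonic acid, Pla2g4a (0.79, SE 0.23), through both cyclooxygenases to prostacyclin synthase, Ptgis. Ptgis stood at 13.4 and 12.1 CPM in WT-TAC replicates 2 and 3 and 26.9, 26.3, 19.2 and 24.04 CPM in HCN4F-TAC replicates 1 to 4, a log2 fold change of 0.92 (SE 0.21, adjusted p = 0.102). The thromboxane synthase gene Tbxas1 (0.63), the prostaglandin E receptor gene Ptger3 (1.05) and the prostacyclin receptor gene Ptgir (0.41) were among the others, chosen after their values were seen.

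Hypertrophic and fetal-program muscle genes, which TAC is known to raise, lay mostly higher in HCN4F-TAC hearts. Of 19 tested members, 17 had a higher mean in HCN4F-TAC hearts, 9 lay above without overlap and none lay below (median log2 fold change 0.33). Acta1, skeletal muscle alpha-actin, stood at 1191 and 1945 CPM in WT-TAC replicates 2 and 3 and 3771, 5589.9, 2121 and 3637 CPM in HCN4F-TAC replicates 1 to 4, and the natriuretic peptide gene Nppb at 458 and 531 CPM in WT-TAC replicates 2 and 3 and 1035, 1214, 680.4 and 929.5 CPM in HCN4F-TAC replicates 1 to 4. Neither passed the threshold, with adjusted p-values of 0.211 and 0.41. Xirp2, a protein of the intercalated disc, was at 948 and 1201 CPM in WT-TAC replicates 2 and 3 and 1778, 1969.6, 1389.7 and 1752 CPM in HCN4F-TAC replicates 1 to 4 (log2 fold change 0.68, SE 0.15, adjusted p = 0.0976), and Synpo2l, a Z-disc protein, at 282 and 442 CPM in WT-TAC replicates 2 and 3 and 664, 764, 507 and 562 CPM in HCN4F-TAC replicates 1 to 4. The natriuretic peptide gene Nppa, which is also an atrial product, had 244 and 195 CPM in WT-TAC replicates 2 and 3 and 554, 1832, 410.2 and 1179 CPM in HCN4F-TAC replicates 1 to 4. Its highest value fell in replicate 2, where Myl7 and Myl4 were highest, and without that library its log2 fold change was 1.69 in place of 2.18. Nppa did not pass the threshold, as Ankrd1 alone did in this list, and was called in 2 of the 13 alternative fits. The slow myosin gene Myh7 (1.70), chosen after its value was seen, also lay above without overlap. Without HCN4F-TAC replicate 2 the count of non-overlapping members was 9, and without replicate 3 it was 12.

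The promoters of Acta1, Ankrd1 and Nppb are shown because these abundant muscle genes lay above without overlap and, unlike some others of the list, hold a known element of such promoters, the MCAT core CATTCC that TEAD factors bind. The sequences are the 250 bases before the RefSeq start on GRCm38.p6, with matches to CATTCC on either strand and to the CArG box of serum response factor in capitals.
Acta1, chr8:123894776-123895025, minus strand: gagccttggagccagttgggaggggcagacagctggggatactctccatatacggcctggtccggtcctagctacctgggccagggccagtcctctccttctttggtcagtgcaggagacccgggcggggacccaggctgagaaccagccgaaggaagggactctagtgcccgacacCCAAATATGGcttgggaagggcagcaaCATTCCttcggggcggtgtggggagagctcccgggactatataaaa
Ankrd1, chr19:36119845-36120094, minus strand: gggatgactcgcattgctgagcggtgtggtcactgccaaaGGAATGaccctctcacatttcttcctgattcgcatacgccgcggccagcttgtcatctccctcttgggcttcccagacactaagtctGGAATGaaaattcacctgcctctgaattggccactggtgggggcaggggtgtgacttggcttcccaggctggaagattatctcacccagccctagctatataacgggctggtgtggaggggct
Nppb, chr4:147985650-147985899, plus strand: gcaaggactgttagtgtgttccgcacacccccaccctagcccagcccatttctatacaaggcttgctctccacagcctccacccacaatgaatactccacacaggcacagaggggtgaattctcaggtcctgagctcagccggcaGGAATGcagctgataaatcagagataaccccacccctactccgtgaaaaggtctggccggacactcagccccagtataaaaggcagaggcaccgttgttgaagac
Ankrd1 held 2 MCAT cores and no CArG box, Nppb 1 MCAT core and no CArG box, and Acta1 1 of each, without overlap between the motifs. Across the promoters of 11017 tested genes of the same length, 10.8% held CATTCC and 1.12% a CArG box. Of 17 hypertrophic list members with a promoter in the table, 4 held CATTCC and 4 a CArG box. Of the 9 members above without overlap, 4 held CATTCC (the 3 shown and Myh7) and 2 a CArG box (Acta1 and Fhl1), and Nppa, Xirp2, Synpo2l and Csrp3 held neither. Of 8 other members with a promoter, none held CATTCC and 2 a CArG box. The promoters shown were thus chosen after the search, for holding a match. These matches describe letters and not binding. The YAP-TEAD list as a whole lay near the background of all genes in its median (0.07), with 6 of 25 members above and none below (10 above and 4 below without HCN4F-TAC replicate 3), among them Ankrd1, Vgll3 (0.72, SE 0.21) and Myof (0.46, SE 0.14). The TEAD cofactor Vgll2 overlapped between the groups, at 0.164 and 0.458 CPM in WT-TAC replicates 2 and 3 and 1.58, 3.33, 0.353 and 4.80 CPM in HCN4F-TAC replicates 1 to 4.

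Inflammatory gene lists had mostly higher means in HCN4F-TAC hearts, at low levels. Of 18 tested chemokines, 17 had a higher mean, 10 lay above without overlap and 1, the eosinophil chemokine Ccl11 (-1.46), lay below (median 0.69). Cxcl14 stood at 18.6 and 17.7 CPM in WT-TAC replicates 2 and 3 and 30.9, 44.4, 26.6 and 50.2 CPM in HCN4F-TAC replicates 1 to 4 (log2 fold change 1.06, SE 0.22, adjusted p = 0.0976). The monocyte chemokines were less abundant. Ccl7 had 0.493 and 0.687 CPM in the WT-TAC libraries and 2.07, 1.28, 1.94 and 1.51 CPM in the HCN4F-TAC libraries, Ccl2 had 0.534 and 2.15 CPM in the WT-TAC libraries and 5.35, 2.30, 4.03 and 3.25 CPM in the HCN4F-TAC libraries and Ccl12 had 0.0822 and 0.401 CPM in the WT-TAC libraries and 1.45, 0.790, 0.424 and 1.67 CPM in the HCN4F-TAC libraries, the last from 2 and 14 reads in WT-TAC. Their groups did not overlap, and their log2 fold changes of 1.49, 1.40 and 2.01 did not pass the threshold (adjusted p = 0.111, 0.228 and 0.215). The sizes for Ccl2 and Ccl12 depended on which WT-TAC library was kept: Ccl2 was at 0.79 with replicate 2 left out and 2.79 with replicate 3 left out, and Ccl12 at 1.40 and 3.63.

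All 28 interferon-stimulated genes had a higher mean in HCN4F-TAC hearts (median 0.45), and 9 lay above without overlap. Ifit3, an antiviral effector, stood at 2.92 and 5.04 CPM in WT-TAC replicates 2 and 3 and 8.999, 9.25, 5.72 and 8.58 CPM in HCN4F-TAC replicates 1 to 4, and the other named members, Oasl2 (0.70, SE 0.19) and Isg15 (0.73, SE 0.20), had the same direction (Oasl2 at 0.45 without WT-TAC replicate 2). The interferon score was -0.40 and -0.02 in WT-TAC replicates 2 and 3 and 0.37, 0.40, -0.06 and 0.35 in HCN4F-TAC replicates 1 to 4, so that HCN4F-TAC replicate 3 lay just below WT-TAC replicate 3, the groups overlapped and WT-TAC replicate 2 was the lowest. Without HCN4F-TAC replicate 3, 22 of the 28 lay above, and with total-count scaling 17 did, where the background was 15.1%. Of 22 inflammatory cytokine and NF-kB genes, 21 were higher (median 0.35) and 6 did not overlap. Serpina3n, an acute-phase protease inhibitor, had the smallest p of these, at 8.13 and 10.05 CPM in WT-TAC replicates 2 and 3 and 36.04, 30.9, 23.5 and 39.3 CPM in HCN4F-TAC replicates 1 to 4 (log2 fold change 1.82, SE 0.34, adjusted p = 0.0834). In Sham hearts its difference did not pass the threshold (1.06, adjusted p = 0.0973). The adhesion molecule gene Vcam1 (0.58, SE 0.14) and the TNF receptor gene Tnfrsf1b (0.66, SE 0.17) followed. Macrophage and monocyte markers moved with these lists. Of 14 tested, 13 had a higher mean and 6 did not overlap (median 0.51), and their summed level was 185 to 203 CPM in WT-TAC and 195 to 311 CPM in HCN4F-TAC, with replicate 3 the lowest of these and below WT-TAC replicate 2. Without replicate 3, 9 did not overlap. Red blood cell markers had a higher mean for 5 of 5 (median 1.00), with a summed level of 88.2 and 100.008 CPM in WT-TAC and 98.9 to 365 CPM in HCN4F-TAC, highest in replicate 2. B and plasma cell markers had a higher mean for 5 of 5 (median 0.76, summed 5.997 to 15.6 CPM in WT-TAC and 11.2 to 25.5 CPM in HCN4F-TAC). Neutrophil markers had 5 of 5 higher (median 0.38), none without overlap. The part of these cells in the chemokine and interferon results was not tested.

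Within the IL-6 family, Il11, a profibrotic cytokine, was near the limit of detection, at 0.164 and 0.0286 CPM in WT-TAC replicates 2 and 3 and 0.746, 0.494, 0.247 and 0.285 CPM in HCN4F-TAC replicates 1 to 4, and the receptor Lifr lay below without overlap (-0.41, SE 0.13). The list itself had 3 of 16 members above (18.8%) and 2 below (12.5%), beside 11.3% and 11% of all tested genes (median 0.10). Without HCN4F-TAC replicate 1, 5 lay above. Among growth factors of the neuregulin, activin and follistatin families and Gdf15, 13 of 28 lay above without overlap (median 0.50) and 1, Nrg4, below, or 2 below without HCN4F-TAC replicate 3. Nrg1, the endothelial neuregulin, stood at 0.945 and 0.601 CPM in WT-TAC replicates 2 and 3 and 2.12, 3.13, 1.52 and 2.60 CPM in HCN4F-TAC replicates 1 to 4 (log2 fold change 1.63, SE 0.46, adjusted p = 0.17), opposite in direction to Nrg4. The stress cytokine Gdf15 was at 4.27 and 4.98 CPM in WT-TAC replicates 2 and 3 and 15.6, 28.7, 9.36 and 22.1 CPM in HCN4F-TAC replicates 1 to 4 (log2 fold change 2.03, SE 0.65, adjusted p = 0.235). Follistatin-like 1 (Fstl1) was more abundant, at 101 and 95.8 CPM in WT-TAC replicates 2 and 3 and 183, 209, 116 and 168 CPM in HCN4F-TAC replicates 1 to 4 (log2 fold change 0.78, SE 0.16), and the epidermal growth factor family member Ereg stood at 0.123 and 0.114 CPM in the WT-TAC libraries and 0.746, 1.05, 0.424 and 0.936 CPM in the HCN4F-TAC libraries.

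Cell cycle genes had a higher mean for 32 of 34 members (median 0.50), but 8 lay above without overlap. The count was 15 without HCN4F-TAC replicate 2 and 14 without replicate 3. The score was 0.22 and 0.21 in WT-TAC replicates 2 and 3 and 1.17, 0.44, 0.29 and 1.10 in HCN4F-TAC replicates 1 to 4, so replicates 1 and 4 were the highest and replicates 2 and 3 lay nearer to WT-TAC. Cdk1, the mitotic kinase, stood at 0.986 and 1.20 CPM in WT-TAC replicates 2 and 3 and 2.94, 1.48, 1.24 and 3.74 CPM in HCN4F-TAC replicates 1 to 4, and Mcm6, of the replicative helicase, at 6.61 and 7.56 CPM in WT-TAC replicates 2 and 3 and 11.2, 9.58, 7.70 and 11.4 CPM in HCN4F-TAC replicates 1 to 4. The median of the same list in Sham hearts was 0.40. Genes of cytosolic ribosomal proteins had 66 of 76 higher means, 24 above without overlap and 3 below (Rplp1, Rplp0 and Rpl9), at a median of 0.07, and 43 lay above without HCN4F-TAC replicate 3 and 38 with total-count scaling. Rpl3 had the largest difference on the higher side, at 133 and 139 CPM in WT-TAC replicates 2 and 3 and 152, 193, 161 and 179 CPM in HCN4F-TAC replicates 1 to 4 (0.34, SE 0.11), and Rplp1 lay below (-0.53, SE 0.18, and -0.35 without WT-TAC replicate 2). Many ribosomal protein genes have near-identical pseudogenes, so their counts are uncertain. Proteasome subunit genes had 6 of 38 members above without overlap (15.8%), near the 11.3% of all tested genes, at a median of 0.04. Without HCN4F-TAC replicate 3 the count was 13 (34.2%), where the background was 18.5%. The 6 included Psma5 (0.31, SE 0.09) and the interferon-induced subunit genes Psmb8 (0.57, SE 0.17) and Psmb9 (0.34, SE 0.19). With WT-TAC replicate 2 left out Psmb8 was at 0.28, and with replicate 3 left out at 0.96, and Psmb9 at 0.19 and 0.53.

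Energy metabolism formed the broadest group on the lower side, with small differences shared by many genes. Of 32 tested genes of the tricarboxylic acid cycle and branched-chain amino acid breakdown, 1 (Bcat2, 0.01) had a higher mean, and for 22 all 4 HCN4F-TAC libraries lay below both WT-TAC libraries (median -0.21, range -0.34 to 0.01), against a background of 11%. The count was 22 without HCN4F-TAC replicate 2 and 30 without replicate 3, against backgrounds of 13.6% and 17.9%. Sdha, the catalytic subunit of succinate dehydrogenase, stood at 1506 and 1416 CPM in WT-TAC replicates 2 and 3 and 1179, 1025, 1368 and 1064 CPM in HCN4F-TAC replicates 1 to 4 (log2 fold change -0.33, SE 0.11, adjusted p = 0.224). Mccc1, of leucine breakdown, was at 112 and 95.3 CPM in WT-TAC replicates 2 and 3 and 84.4, 77.5, 91.7 and 74.1 CPM in HCN4F-TAC replicates 1 to 4, and Sdhd, a membrane anchor of succinate dehydrogenase, at 303 and 320.0 CPM in WT-TAC replicates 2 and 3 and 251, 240.1, 264 and 234 CPM in HCN4F-TAC replicates 1 to 4. Sdhd lies 8.22 Mb from Hcn4 on chromosome 9 and had a similar value in Sham hearts (-0.31, against -0.33 after TAC).

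Fatty acid uptake and oxidation genes had 15 of 31 members below without overlap and none above (median -0.26), and 2 members, Fabp3 (0.11) and Bdh1 (0.45), with a higher mean. Acadvl, the first dehydrogenase for very long chains, stood at 739 and 698 CPM in WT-TAC replicates 2 and 3 and 604, 499.7, 687 and 543 CPM in HCN4F-TAC replicates 1 to 4 (log2 fold change -0.30, SE 0.11, adjusted p = 0.256). Acaa2, the thiolase of the last step, was at 571 and 529 CPM in WT-TAC replicates 2 and 3 and 425, 410.0, 512 and 404 CPM in HCN4F-TAC replicates 1 to 4, and Decr1, an auxiliary enzyme for unsaturated chains, at 267 and 279 CPM in WT-TAC replicates 2 and 3 and 222, 223, 257 and 211 CPM in HCN4F-TAC replicates 1 to 4. In each, HCN4F-TAC replicate 3 was the HCN4F-TAC library closest to WT-TAC. Without it 25 of the 31 lay below. Ppara, the nuclear receptor that drives these genes, was at 47.1 and 45.5 CPM in WT-TAC replicates 2 and 3 and 30.1, 32.7, 34.1 and 29.04 CPM in HCN4F-TAC replicates 1 to 4 (log2 fold change -0.55, SE 0.24, adjusted p = 0.378). Of the list of PPAR, ERR and PGC-1 regulators and creatine kinases, 4 of 18 (22.2%) lay below (Ppara, Rxrg, Esrrg and Ckm). The 2 above (11.1%, at the background of 11.3%) were Nrf1 (0.19) and the brain-type creatine kinase gene Ckb (0.38, SE 0.15). Without HCN4F-TAC replicate 3, 8 lay below.

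Nuclear-encoded subunits of oxidative phosphorylation had 32 of 74 members below and none above, at a median log2 fold change of -0.09, with 5 members higher (Ndufb3, Ndufc1, Cox6a1, Atp5l and Cox8a). Without HCN4F-TAC replicate 1, 52 lay below, against 13.9% of all genes. Ndufs1, a core subunit of complex I, was at 536 and 484 CPM in WT-TAC replicates 2 and 3 and 432, 382, 477 and 386 CPM in HCN4F-TAC replicates 1 to 4, and the ATP synthase subunit gene Atp5a1 had a log2 fold change of -0.24 (SE 0.09). All 13 protein genes of the mitochondrial genome had a lower mean (median -0.29), and 7 lay below without overlap. The share of reads on mitochondrial genes was 18.4% and 20.03% in WT-TAC and 17.3%, 13.9%, 18.6% and 16.8% in HCN4F-TAC replicates 1 to 4, so the groups overlapped. Glycolysis, pyruvate and glycogen genes had 12 of 30 below and none above (median -0.11), including the phosphofructokinase gene Pfkm (-0.25, SE 0.09) and the pyruvate dehydrogenase kinase gene Pdk2 (-0.24, SE 0.08). Pfkfb1, which sets the level of the activator of phosphofructokinase, had the largest difference among them, at 4.52 and 3.81 CPM in WT-TAC replicates 2 and 3 and 2.28, 1.12, 2.61 and 1.18 CPM in HCN4F-TAC replicates 1 to 4. These counts depended on scaling. With total counts in place of TMM, 13 tricarboxylic acid cycle, 5 fatty acid, 13 oxidative phosphorylation and 6 glycolysis genes lay below, where the background was 5.83%, and the medians of these lists kept their sign. With DESeq2's size factors the counts were 23, 16, 32 and 12. Ventricular cardiomyocyte markers were lower in the same libraries, 4 without overlap (2 with total-count scaling). The most abundant of them, Myh6, the adult myosin heavy chain gene, stood at 31643 and 29647 CPM in WT-TAC replicates 2 and 3 and 26212, 19964, 26035 and 24155 CPM in HCN4F-TAC replicates 1 to 4 (log2 fold change -0.35, SE 0.10, adjusted p = 0.17), and the part of cardiomyocyte content in the metabolic result was not tested.

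Genes of calcium handling, repolarization and adrenergic signaling mostly had lower means, 14 of 19, 19 of 23 and 17 of 25, and fewer were without overlap. Of 23 channel and gap junction genes, 9 lay below without overlap and 1 above (median -0.23), with 12 below and 2 above without HCN4F-TAC replicate 3. Kcnh2, the channel of the rapid delayed rectifier current, stood at 72.5 and 70.1 CPM in WT-TAC replicates 2 and 3 and 43.05, 45.8, 61.7 and 53.5 CPM in HCN4F-TAC replicates 1 to 4 (log2 fold change -0.48, SE 0.12, adjusted p = 0.11). Kcnj3, a subunit of the acetylcholine-gated channel, was at 34.01 and 28.7 CPM in WT-TAC replicates 2 and 3 and 20.8, 12.3, 21.7 and 20.7 CPM in HCN4F-TAC replicates 1 to 4, with replicate 2 far below the others, and the modifying subunit Kcnv2 at 5.83 and 3.55 CPM in WT-TAC replicates 2 and 3 and 1.33, 1.12, 2.68 and 1.95 CPM in HCN4F-TAC replicates 1 to 4. Hcn4 itself was 1 of the 9. For calcium handling, 7 of 19 (36.8%) lay below (Hrc, Ryr2, Atp2a2, Cacna1c, Cacna2d1, Jph2 and Slc8a1). Atp2b4 (0.43, SE 0.13, and 0.28 without WT-TAC replicate 3) and Fkbp1b (1.69, SE 0.53) lay above, 10.5% beside 11.3% of all tested genes (4 above without HCN4F-TAC replicate 3). Fkbp1b was near the limit of detection, at mean levels of 0.133 CPM in WT-TAC and 0.439 CPM in HCN4F-TAC. Hrc, a calcium-binding protein of the sarcoplasmic reticulum, stood at 1079 and 1070.1 CPM in WT-TAC replicates 2 and 3 and 836, 684, 999 and 850.3 CPM in HCN4F-TAC replicates 1 to 4 (log2 fold change -0.35, SE 0.11, adjusted p = 0.186). Chosen after their values were seen, the ryanodine receptor gene Ryr2 and the calcium pump gene Atp2a2 had log2 fold changes of -0.39 and -0.43. In adrenergic, muscarinic and cyclic nucleotide signaling, 8 of 25 (32%) lay below (5 with total-count scaling). Among them were Rgs6 (-0.54, SE 0.15), which shortens muscarinic signals, and the phosphodiesterase gene Pde3a (-0.43, SE 0.13). Pde1a (0.50, SE 0.17) and Gnai2 (0.14) lay above, 2 of 25 (8%) beside 11.3% of all tested genes, or 5 without HCN4F-TAC replicate 3. Of 15 tested genes of the renin-angiotensin, endothelin and natriuretic peptide systems, 5 had a higher mean, 3 (Corin, Furin and Ednra) lay below and 1, Edn3 (0.81), above. There were 6 below without HCN4F-TAC replicate 2 or 3 and 3 above without replicate 1. Edn3 was at 0.50 with WT-TAC replicate 2 left out and 1.23 with WT-TAC replicate 3 left out. Corin, the protease that activates the natriuretic peptides, was at 191 and 171 CPM in WT-TAC replicates 2 and 3 and 132, 115, 142 and 100.4 CPM in HCN4F-TAC replicates 1 to 4 (log2 fold change -0.56, SE 0.22), and Furin, another processing protease, at -0.26 (SE 0.11). Neither passed the threshold.

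**Figure D5:**
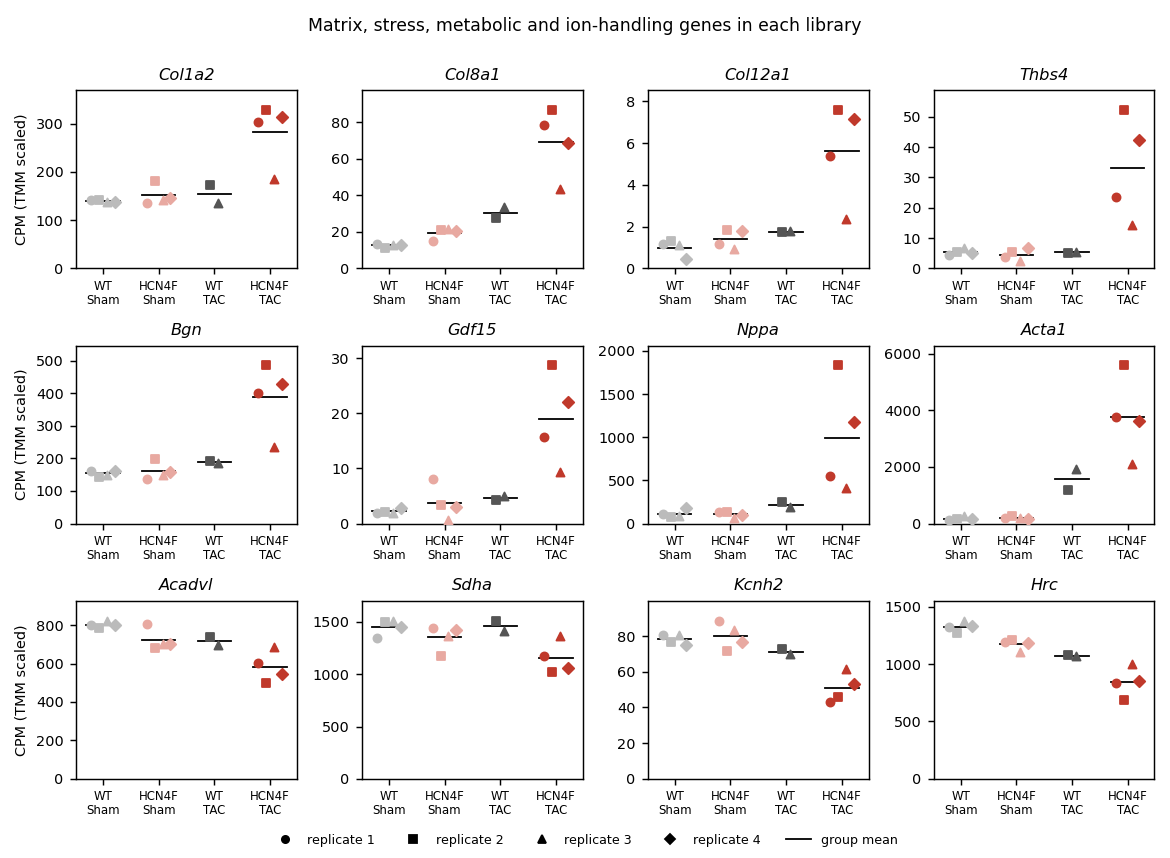
Each point is 1 library (CPM after TMM scaling on a linear axis from 0), each bar the mean of its group, and the marker shape gives the replicate number. For the matrix and stress genes HCN4F-TAC replicate 3 (triangle) was the lowest HCN4F-TAC library and still above both WT-TAC libraries, and for Acadvl, Sdha, Kcnh2 and Hrc it was the highest and still below both.

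Passing the adjusted p threshold without the fold threshold on the lower side were Dglucy, a mitochondrial D-glutamate cyclase, Tmod4, a tropomodulin of striated muscle, and Tmem94, a membrane protein. Dglucy stood at 39.2 and 33.03 CPM in WT-TAC replicates 2 and 3 and 22.8, 21.6, 27.2 and 21.5 CPM in HCN4F-TAC replicates 1 to 4 (log2 fold change -0.63, SE 0.10, adjusted p = 0.0158). Tmod4 was at 16.8 and 15.2 CPM in WT-TAC replicates 2 and 3 and 10.6, 8.30, 10.1 and 9.07 CPM in HCN4F-TAC replicates 1 to 4 and Tmem94 at 141 and 142 CPM in WT-TAC replicates 2 and 3 and 99.9, 88.3, 111 and 89.2 CPM in HCN4F-TAC replicates 1 to 4, with adjusted p-values of 0.0475 and 0.0486. Rbfox1, a splicing regulator of muscle and neurons, followed at 43.3 and 30.6 CPM in WT-TAC replicates 2 and 3 and 24.3, 18.3, 22.2 and 17.9 CPM in HCN4F-TAC replicates 1 to 4, but did not pass (log2 fold change -0.83, SE 0.17, adjusted p = 0.0728).

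The remaining lists concern the clock, stress responses and vessels. The median log2 fold change was -0.05 for 19 circadian clock genes, 0.01 for 24 chaperones, -0.02 for 20 genes of the VEGF, angiopoietin and apelin systems, and -0.11 for 18 glucocorticoid-responsive and metallothionein genes. Of the last, 13 had a lower mean, 2 lay below without overlap and 1 above, with 3 and 2 without HCN4F-TAC replicate 4. Immediate early genes had a higher mean for 28 of 34, at a median of 0.24. Those above without overlap were 5 (14.7%), near the background, or 10 without HCN4F-TAC replicate 4 against 13.6% of all genes, and included Egr2 (1.66, SE 0.56, and 2.73 and 1.01 without WT-TAC replicates 2 and 3 in turn), whose WT-TAC libraries held 10.6 and 3.21 CPM, and Klf10 (0.49, SE 0.19), both of which were also higher on average in HCN4F-Sham hearts (3.01 and 0.82). The antioxidant and NRF2 list lay near the background in both directions, with 4 of 26 above (15.4%, 8 without HCN4F-TAC replicate 3 and 8 with total-count scaling), including Hmox1 (0.66, SE 0.18) and Gpx3 (0.61, SE 0.15), and 3 below (11.5%; Sod2, Gstp1 and Prdx3). In the unfolded protein and integrated stress response list 7 of 29 lay above and 2, Hspa5 (-0.32) and Pdia6 (-0.12), below, with 6 below without HCN4F-TAC replicate 3 and 4 without replicate 2, near the backgrounds of 17.9% and 13.6%. Those above included the transcription factor Atf4 (0.29, SE 0.10), its known target Ddit3 (0.60, SE 0.15) and Mthfd2, of mitochondrial folate metabolism, at 3.12 and 2.75 CPM in WT-TAC replicates 2 and 3 and 5.10, 5.96, 4.63 and 6.43 CPM in HCN4F-TAC replicates 1 to 4. The members above also included Sesn2, Pycr1, Psat1 and Aldh18a1. Other stress-response members overlapped between the groups in either direction, at -0.21 for Chac1, -0.06 for Trib3, -0.76 for Aldh1l2, -0.13 for Phgdh, 0.03 for Asns and 0.12 for the endoplasmic reticulum gene Pdia4. Total-count scaling put 8 members of this list above and 0 below, where the backgrounds were 15.1% and 5.83%.

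The genotype difference in Sham hearts was measured on 8 other libraries. Across 15292 genes the log2 fold changes between genotypes in TAC and in Sham hearts had a Pearson r of 0.297, a description across genes that are not independent. Of the 1723 genes above without overlap in TAC hearts, 69.5% were also higher in HCN4F-Sham hearts, against 51.1% of all tested genes, and of the 1679 below, 65.3% were lower, against 48.9%. The Sham medians were -0.0041 for collagens, 0.12 for matricellular genes, -0.10 for hypertrophic genes and -0.03 for fatty acid genes, all closer to 0 than after TAC. They were -0.14 for the tricarboxylic acid cycle list, -0.11 for glycolysis and -0.10 for oxidative phosphorylation, beside -0.21, -0.11 and -0.09 after TAC, and no difference between lists was tested. The interferon list had 0.20 in Sham hearts and 0.45 after TAC, the chemokines 0.24 and 0.69, and the prostaglandin list 0.23 and 0.41. Inflammatory cytokine and NF-kB genes had 0.26 in Sham hearts, where 19 of 22 were higher, and 0.35 after TAC. Some lists differed more in Sham hearts than after TAC. These were immediate early genes (0.41 and 0.24), chaperones (-0.40 and 0.01) and clock genes (0.62 and -0.05). The difference between the genotype effects in TAC and Sham hearts was tested gene by gene as the interaction. No gene passed an adjusted p of 0.05 in edgeR's quasi-likelihood test (smallest adjusted p = 0.168), 1418 genes had an unadjusted p under 0.05, and a DESeq2 fit of the 4 groups gave 40 genes (25 higher and 15 lower). Without HCN4F-TAC replicate 3 the edgeR test called 78 genes (60 higher and 18 lower).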

How the data were processed

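Polyadenylated RNA of left ventricles was sequenced on an Illumina platform, and the authors deposited raw counts, whole numbers of reads per gene without normalization. Per the labels the genome build was GRCm38. The aligner, counting program and use of strand are not given in the sources used here. Libraries were assigned by label, and 2 other count columns, whose names begin like those of WT-TAC but fit none of the samples, were left out. Of 49315 genes, 15292 passed edgeR's filterByExpr by group. All 14 libraries were fitted together in edgeR 4.0.16 (R 4.3.3) with TMM scaling, a mean for each of 4 groups and the robust quasi-likelihood test, and p-values were adjusted by Benjamini and Hochberg's method over the whole table of tested genes. The study used DESeq2, which served as an alternative (version 1.42.0). List scores per library used log2 CPM with a prior count of 2. Steps were tested on simulated data. Positions came from GENCODE mouse release M21, in which 99.3% of gene IDs were found, and promoters from RefSeq.

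The gene lists and the genes in them were chosen with earlier results of these data known, and the libraries by their labels. Named were every called gene, the 8 non-overlapping genes with the smallest p in each direction (mean CPM of at least 1), up to 3 non-overlapping members of each list, the genes named in the study's text and Hcn4, and tissue markers. Other genes, among them list members given as exceptions or in full where few, were chosen after their values were seen. Alternatives were DESeq2, fits on the TAC groups alone, DESeq2's size factors, total counts, other filters, a replicate block and leaving out each TAC library; list counts by scaling and without a library were added after seeing the data. Libraries of a group differed by more than counting noise. Some genes named by this rule are not reported here. Figures were drawn with matplotlib 3.10.9.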

Additional observations from a re-analysis of the deposited data

Results flagged for a closer look

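In 6 of 122 named genes, 1 of the 4 HCN4F-TAC libraries lay far from the other 3 by Dixon's criterion, a rate that chance alone gives for about 1 in 20 groups. For Col1a2 it was HCN4F-TAC replicate 3, at 186 CPM against 304 to 328 CPM in the others, and for Vcan the same library, at 22.2 CPM against 30.1 to 31.3 CPM. Replicate 3 was also low for Psma5, at 31.6 CPM against 37.4 to 37.9 CPM, and for Hspa4l, at 54.6 CPM against 58.1 to 58.6 CPM. HCN4F-TAC replicate 2, in which the atrial markers Myl7, Myl4 and Dkk3 were highest, was low for Kcnj3, itself an atrial marker, at 12.3 CPM against 20.7 to 21.7 CPM, and for Lifr, at 22.7 CPM against 33.1 to 34.2 CPM. Which property of these libraries sets the values was not tested.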

How the results depend on the processing

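Between the TAC groups, 11 genes were called by edgeR on all groups. The number was 17 by the adjusted p alone, 87 with DESeq2 on all groups, 72 with DESeq2 on the TAC groups alone, 3 with edgeR on the TAC groups alone and 48 without a filter on low counts, and from 6 to 158 when 1 TAC library was left out. The lowest was without WT-TAC replicate 2, with 7 without WT-TAC replicate 3, and the highest was without HCN4F-TAC replicate 3. All 11 genes were among the 158 and among the calls of both DESeq2 fits. With the replicate number as a block, 7 genes (2 higher and 5 lower) were called. The labels do not say that a number marks a shared animal or day, so the numbers were not taken to pair the samples. The deviations of same-numbered TAC libraries correlated at 0.01 and -0.05. With 2 WT-TAC libraries the deviations of 1 mirror those of the other, so these values cannot show whether the numbers pair samples. Genes without overlap numbered 1723 above and 1679 below. Scaling by total counts gave 891 below, and leaving out 1 library gave 2080 to 3874 above and 2019 to 3778 below, where the highest counts came from keeping 1 WT-TAC library. The interaction called 0 genes, but 40 with DESeq2 on all groups, 17 without a filter, and 0 to 78 without 1 TAC library. No named gene changed the sign of its log2 fold change in any of the 13 alternative fits in which it was tested. Most named genes were chosen because their groups did not overlap, so a sign could hardly change, and this result is no check of them. The medians of the clock, glucocorticoid, chaperone, stress response and angiogenesis lists changed sign under at least 1 of these fits. Leaving out WT-TAC replicate 2 moved 5 of 34 list medians by at least the pooled standard deviation of the list's TAC library scores, and leaving out replicate 3 moved 7. The largest shifts of any list were 0.38 and 0.40. The cause of these shifts was not tested, other than that fits on fewer libraries or genes change what is estimated. Depth limited genes under about 1 CPM, where values rest on small numbers of reads.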
